A study of Homo sapiens with 12 samples.

Results

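CDKN1A encodes p21, and its peaks were all those on the plus strand of chr6:36676460-36687337 (hg38) in 4 lists of eCLIP peaks of dSpCas9. The gene held 53 of the 18128 peaks of the 4 lists. These were 10 of 6605 V5 peaks over size-matched input, 7 of 3005 V5 peaks over the empty vector IP, 21 of 6554 FLAG peaks over size-matched input and 15 of 1964 FLAG peaks over the empty vector IP. All 53 peaks lay on exons of the canonical mRNA, none of their bases lay in an intron, and no peak of any list lay on the opposite strand, where the annotation has the non-coding gene DINOL. The highest peak of CDKN1A was 45.8-fold enriched in V5 over size-matched input, 29.8-fold in V5 over the empty vector IP, 84.7-fold in FLAG over size-matched input and 89.8-fold in FLAG over the empty vector IP.

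p21 is an inhibitor of cyclin-dependent kinases of the CIP/KIP family. It binds complexes of cyclins with CDK2, CDK4 or CDK6 and stops cells before DNA replication, and it also binds PCNA, the sliding clamp of replication. Its transcription rises after DNA damage and is a standard readout of that response. The CDKN1A mRNA is itself much regulated: proteins that recognize AU-rich elements and miRNAs of the miR-17 family act on its 3′ UTR.

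The RNA came from HEK 293T cells (Lenti-X 293T), a human embryonic kidney line with the large T antigen of SV40. Cells were transfected with a plasmid for V5-dSpCas9, a plasmid for 3xFLAG-dSpCas9 or the empty vector. dSpCas9 is a Cas9 of Streptococcus pyogenes without nuclease activity. By the study's account it had no nuclear localization signal, was found mainly in the cytoplasm and was given no guide RNA. Per the labels, all cells received 400 mJ/cm2 of UV light 2 times, and RNA was taken from the membrane at 115 kDa and above. The 12 libraries formed 6 groups of 2 biological replicates, namely a V5 IP of V5-dSpCas9 cells, its size-matched input (RNA of the same membrane region without IP) and a V5 IP of empty vector cells, and the same 3 groups for FLAG.

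Each list compares one IP with one control and holds, for each peak, a single log2 enrichment that already combines both replicates, with a −log10 p. Depth was therefore unknown, no error can be given for a value, and no difference below was tested. Every list started at a log2 enrichment of 3.00, so a base without a peak may still carry a weaker signal. The V5 lists share their IP libraries with each other, as do the FLAG lists. Peak lists give no RNA levels, so neither the expression of CDKN1A in each group nor the markers of the cell line could be checked. More bound RNA per cell and more cells with bound RNA cannot be told apart in these bulk samples.

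The canonical transcript CDKN1A-201 has 3 exons and 2117 nt. Exon 1 (chr6:36678714-36678798, 85 nt) holds 5′ UTR only. Exon 2 (chr6:36684097-36684546, 450 nt) holds the last 5 nt of the 5′ UTR and 445 nt of the 495-nt CDS. Exon 3 (chr6:36685751-36687332, 1582 nt) holds the other 50 nt of the CDS and the whole 3′ UTR of 1532 nt. The other transcripts add 879 exon bases, of which 0 lay in a peak.

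By the region that held most of a peak, 9 of the 53 peaks lay in the 5′ UTR, 13 in the CDS and 31 in the 3′ UTR. Together they covered 1118 nt, or 52.8% of the mRNA. They covered 80% of the 5′ UTR, 54.7% of the CDS and 50.6% of the 3′ UTR, so no region was free of peaks. A total of 382 nt, or 18% of the mRNA, lay in peaks of all 4 lists, and 999 nt (47.2%) lay in none. Because adjoining peaks of one list often touch, peaks of any list that touched or overlapped were joined into stretches, which gave 11 stretches, numbered from the 5′ end. Of these, 6 had a peak in all 4 lists, 1 in 3 lists and 4 in 2 lists.

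**Figure D1:**
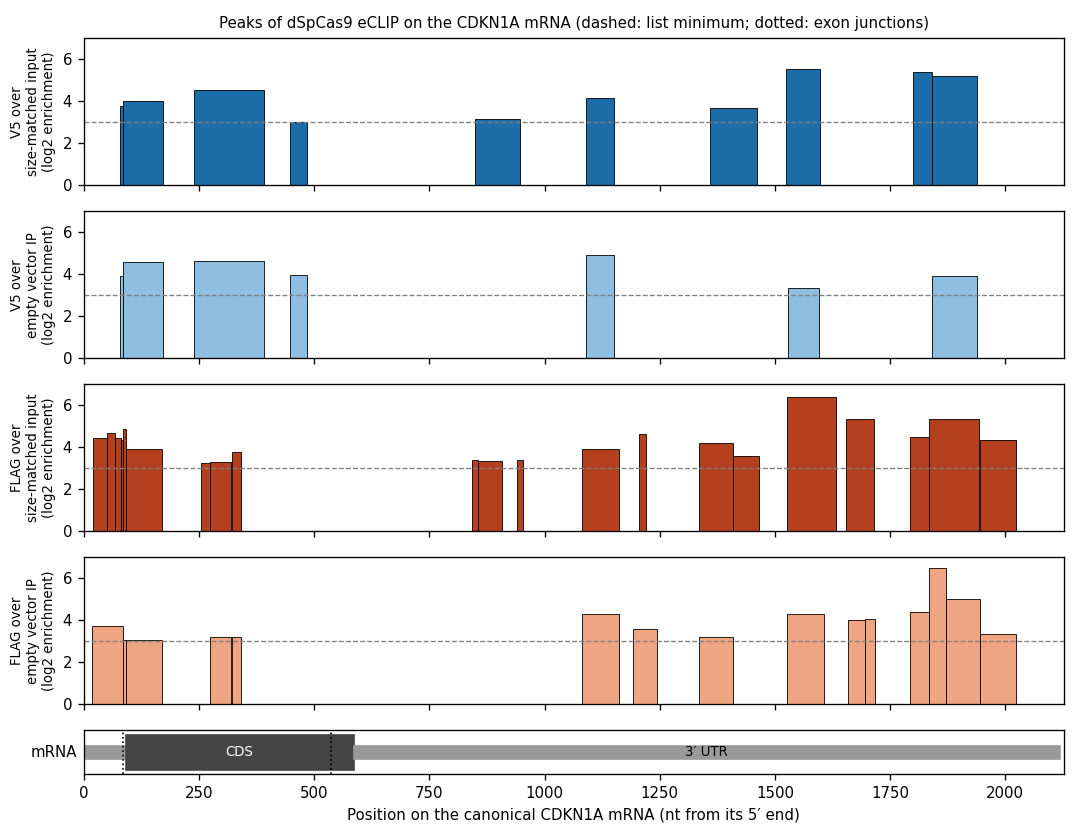
The 53 peaks on the canonical CDKN1A mRNA, with 1 panel for each list; the x axis is the position in nt from the 5′ end, and the height of each box is the log2 enrichment of that peak over its control. The dashed line is the list minimum of 3.00, the dotted lines are the exon junctions, and the tallest boxes of the FLAG panels (6.40 and 6.49) lie in the distal 3′ UTR.

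The sequences shown first are those that the 4 lists share. A reproducible interval is the overlap that remained when the lists were intersected with at least 50% of the first interval overlapping at each step, and CDKN1A had 5. Over all genes this gave more intervals than the study reports as reproducible peaks. The intervals here, and the shares of genes and intervals based on them, are therefore not those of the published set. Interval 1 was 5 nt of exon 1 (chr6:36678793-36678797). Interval 2 began with the start codon, in capitals, and is printed whole because it is the longest reproducible interval of the gene. Intervals 3, 4 and 5 lie in the 3′ UTR (chr6:36686306-36686366, chr6:36686744-36686810 and chr6:36687086-36687152) and are shown by 30 nt around their GU-loop:5nt-stem, with the GU and the 5 predicted stem bases in capitals. The last line is a CDS segment of which 67 of 68 bases lay in peaks of all 4 lists, although the 50% rule left no interval there. All are the plus strand of hg38 from 5′ to 3′, with T for U.
Interval 2, chr6:36684102-36684180: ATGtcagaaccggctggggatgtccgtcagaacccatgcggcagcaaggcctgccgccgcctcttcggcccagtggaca
Interval 3 site, chr6:36686336-36686365: ggttgggcaggGTGACCCtgaagtgagcac
Interval 4 site, chr6:36686775-36686804: ctcctctagctGTGGGGGtgagggtcccat
Interval 5 site, chr6:36687091-36687120: tgaagtgcttaGTGTACTtggagtattggg
Shared CDS segment, chr6:36684285-36684352: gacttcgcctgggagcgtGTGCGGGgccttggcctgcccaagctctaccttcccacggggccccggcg

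In the 5′ UTR, stretch 1 covered 67 nt of exon 1 (chr6:36678732-36678798) and was found by both antibodies over both controls. Both V5 lists held the same peak of 8 nt at the very end of the exon, with a log2 enrichment of 3.78 over size-matched input against 3.92 over the empty vector IP. The FLAG lists reached further upstream. FLAG over size-matched input had 4 adjoining peaks of 5 to 30 nt with log2 enrichments from 4.36 to 4.68, and FLAG over the empty vector IP had 1 peak of 66 nt at 3.74. The highest FLAG value over size-matched input was 0.90 above the V5 value on the log2 scale, while over the empty vector IP the same difference was -0.19.

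Stretch 2 (chr6:36684097-36684183, 87 nt) began at the first base of exon 2 and ran over the start codon into the CDS. V5 had 1 peak over the whole stretch, at 4.01 over size-matched input against 4.57 over the empty vector IP. In both FLAG lists the signal was divided at the start codon, into a peak of 5 nt before it and a peak of 79 nt (interval 2) from its first base. The 5-nt peak stood at 4.89 over size-matched input against 3.04 over the empty vector IP. The 79-nt peak stood at 3.94 and 3.05. Among all peaks of the 4 lists that held the first base of a canonical start codon, 19 of 846 (2.25%) began at that base, as these FLAG peaks did.

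The ends of stretches 1 and 2 fall on an exon junction, so that on the spliced mRNA they are 1 continuous run. Of the 53 peaks, 8 had an end within 1 nt of an internal exon edge, and all 8 were at the end of exon 1 or the start of exon 2. Over the 4 lists, 22.7% of 17383 peaks on spliced protein-coding genes had such an end. The V5 peaks of exon 1 ended on its last base and the FLAG peaks 1 nt before it, and every exon 2 peak of stretch 2 that touched the edge began on the first base. No peak reached the junction of exon 2 and exon 3, which lies inside the CDS.

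Stretch 3 (chr6:36684250-36684401, 152 nt) lay wholly in the CDS. It was a single V5 peak with the same ends in both V5 lists, at 4.54 over size-matched input against 4.63 over the empty vector IP, and it was the longest of the 53 peaks. FLAG divided it into smaller pieces with lower values. FLAG over size-matched input had peaks of 20, 46 and 21 nt at 3.24, 3.31 and 3.76, and FLAG over the empty vector IP had the latter pair at 3.19 and 3.22. This was the stretch where V5 stood farthest above FLAG over size-matched input, by a FLAG minus V5 difference of -0.78.

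Stretch 4 (chr6:36684459-36684495, 37 nt), also in the CDS, was the one stretch of the 11 with V5 peaks and no FLAG peak. Its V5 enrichment was 3.03 over size-matched input, close to the list minimum, and 3.95 over the empty vector IP. The rest of exon 2 after this stretch and the CDS part of exon 3 lay in no peak.

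The 3′ UTR held the other 7 stretches, and its first 256 nt after the stop codon held no peak. Stretch 5 (chr6:36686057-36686167, 111 nt) had peaks over size-matched input with both antibodies and over the empty vector IP with neither. V5 had 1 peak there, of 98 nt at 3.15. FLAG had peaks of 13, 54 and 13 nt at 3.38, 3.35 and 3.40. These enrichments were low among the 53, yet the −log10 p of the V5 peak was 45.9 and that of the 54-nt FLAG peak 73.0, the latter being the highest of the gene's FLAG peaks over size-matched input apart from 1 peak at the ceiling of 400.

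Stretch 6 (chr6:36686297-36686377, 81 nt) was covered in all 4 lists and holds interval 3. V5 had the same 61-nt peak in both lists, at 4.17 over size-matched input against 4.90 over the empty vector IP, the latter being the highest CDKN1A value of that list. FLAG had the same 81-nt peak in both lists, at 3.91 and 4.31. Stretch 6 was higher with the empty vector control than with the input control for both antibodies, by 0.72 for V5 and 0.40 for FLAG.

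Stretches 7 and 8 were found less completely. Stretch 7 (chr6:36686407-36686458, 52 nt) had FLAG peaks only, a 15-nt peak at 4.65 with the input control and a 52-nt peak at 3.60 with the empty vector control. Stretch 8 (chr6:36686551-36686680, 130 nt) lacked only V5 signal over the empty vector IP. Its V5 peak stood at 3.66, its FLAG peaks over size-matched input at 4.19 and 3.60, and its FLAG peak over the empty vector IP at 3.21.

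Stretch 9 (chr6:36686740-36686846, 107 nt) held the highest CDKN1A peak over size-matched input with each antibody, and interval 4 lies in it. V5 stood at 5.52 over a 73-nt peak and FLAG at 6.40 over a 105-nt peak. Over the empty vector IP the same place was much lower, with 3.34 for V5 and 4.32 for FLAG. The differences between the controls, -2.18 for V5 and -2.09 for FLAG, were the most negative for each antibody among the stretches with peaks over both controls. Against the whole lists, 1.77% of V5 peaks and 0.87% of FLAG peaks over size-matched input were higher than these.

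Stretch 10 (chr6:36686869-36686931, 63 nt) was the other stretch with FLAG peaks only. FLAG stood at 5.32 over size-matched input in 1 peak of 61 nt. Over the empty vector IP it had 2 adjoining peaks of 38 and 21 nt, at 4.02 and 4.06.

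Stretch 11 (chr6:36687008-36687238, 231 nt) was the longest, lay from 1208 to 1438 nt after the stop codon and ended 94 nt before the end of the mRNA. V5 over size-matched input had 2 touching peaks at 5.40 and 5.19, and V5 over the empty vector IP had the second of these at 3.93. FLAG over size-matched input had 3 peaks at 4.49, 5.34 and 4.35. The middle of these (chr6:36687050-36687157) was the one CDKN1A peak at the ceiling of 400 of the −log10 p. FLAG over the empty vector IP had 4 peaks at 4.40, 6.49, 4.99 and 3.34, and the 37-nt peak at 6.49 (chr6:36687049-36687085) was the highest of all 53. It lies next to interval 5 and not in it.

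**Figure D2:**
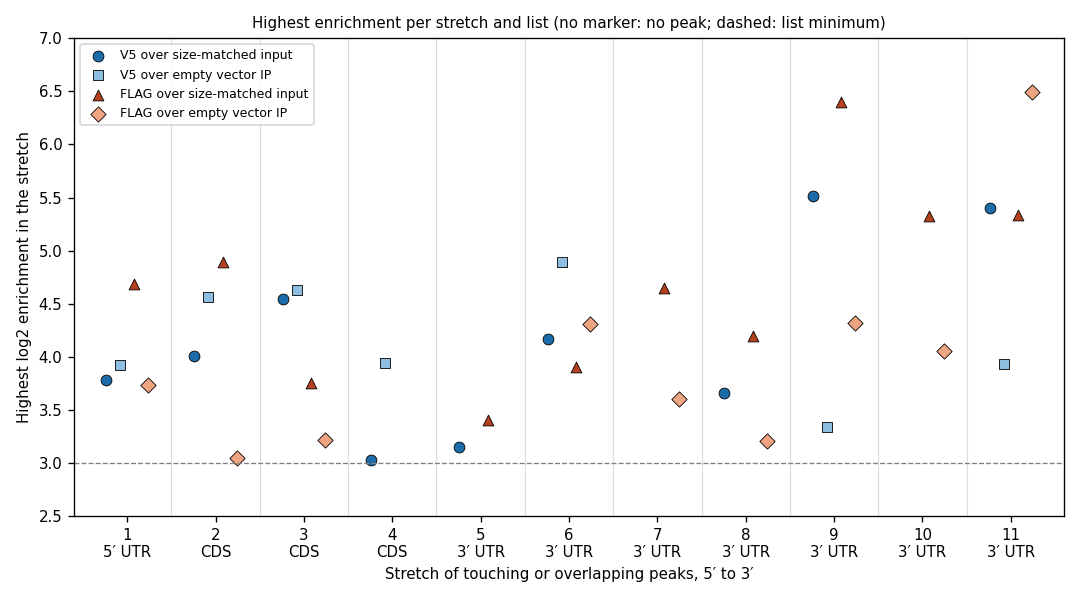
Highest log2 enrichment (y axis) of each of the 11 stretches (x axis, 5′ to 3′) in each list, 1 marker shape and colour for a list; a missing marker means no peak. In stretch 9 both markers over size-matched input (5.52 and 6.40) stand above both over the empty vector IP (3.34 and 4.32), and in stretch 6 the order of the controls is the opposite.

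The order of the stretches thus depended on the control. Over size-matched input, stretch 9 was highest with both antibodies. Over the empty vector IP, stretch 6 was highest with V5 (4.90) and stretch 11 with FLAG (6.49). Among the 8 stretches that both antibodies shared over size-matched input, FLAG was higher in 5, with a median difference of 0.39 and a range from -0.78 to 0.90. Among the 6 stretches with both over the empty vector IP, FLAG was higher in 2, with a median of -0.39 and a range from -1.52 in stretch 2 to 2.56 in stretch 11. These differences compare the highest peak of each stretch, and FLAG signal was often divided into more and shorter peaks. In stretch 2 over size-matched input, FLAG was higher only by its 5-nt peak (4.89). Its 79-nt peak stood at 3.94, against 4.01 for V5. The 2.56 of stretch 11 sets a 37-nt FLAG peak against a 96-nt V5 peak. Without replicate values, these differences cannot be set against a spread.

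The number of peaks also differed between the controls, as it did between the antibodies. With the empty vector control, all 7 V5 and all 15 FLAG peaks overlapped a peak that the same antibody had over size-matched input. In the whole lists, 76.6% of V5 and 90.5% of FLAG peaks with that control did so. In the other direction, 7 of 10 V5 peaks (70%) and 16 of 21 FLAG peaks (76.2%) over size-matched input overlapped one over the empty vector IP, beside 36% and 27.9% of the whole lists. The 3 V5 peaks without such a partner lay in stretches 5, 8 and 11, and of the 5 FLAG peaks 3 lay in stretch 5, 1 in stretch 3 and 1 in stretch 8.

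Between the antibodies, 616 nt of the mRNA lay in peaks of both over size-matched input, which was 81.5% of the V5 bases and 65.9% of the FLAG bases. Over the empty vector IP it was 382 nt, or 75.2% of the V5 bases and 48.1% of the FLAG bases. The FLAG peaks were shorter, with medians of 41 nt (input control) and 52 nt (empty vector control), against 80 and 67 nt for V5. They covered more of the mRNA all the same, 44.2% and 37.6% against 35.7% and 24%.

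Among the genes with a peak in a list, CDKN1A stood near the top of each by its highest peak, and higher with FLAG than with V5. It ranked 63 of 2692 genes in V5 over size-matched input, next to PXN (5.52) above and NME6 (5.50) below. In V5 over the empty vector IP it ranked 76 of 1320, between KIF1A (4.91) and ZNF496 (4.90). In FLAG over size-matched input it ranked 17 of 2628, between CTC-338M12.4 (6.47) and ATF3 (6.37), and in FLAG over the empty vector IP 4 of 994, between ATF3 (7.26) and POLG (6.48). These neighbours differ from CDKN1A by little in most lists, and no error tells such ranks apart.

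The FLAG rank over the empty vector IP rests on the single 37-nt peak of stretch 11. By the length-weighted mean of its peaks CDKN1A ranked 297, 124, 193 and 208 in the same order of lists, with means of 4.29, 4.29, 4.48 and 3.94. With that mean, its rank over the empty vector IP was higher with V5 than with FLAG. By the share of the canonical mRNA in peaks it ranked 22 of 2636 protein-coding genes with a peak, 37 of 1306, 12 of 2570 and 4 of 974. Its 52.8% in any list ranked 12 of 3510, where the median gene had 4.65%. Its 382 nt in all 4 lists ranked 10 of the 544 protein-coding genes with a peak in all 4 lists, where the median was 86.5 nt. In each list CDKN1A thus ranked higher by the share of its mRNA in peaks than by the average height of its peaks.

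**Figure D3:**
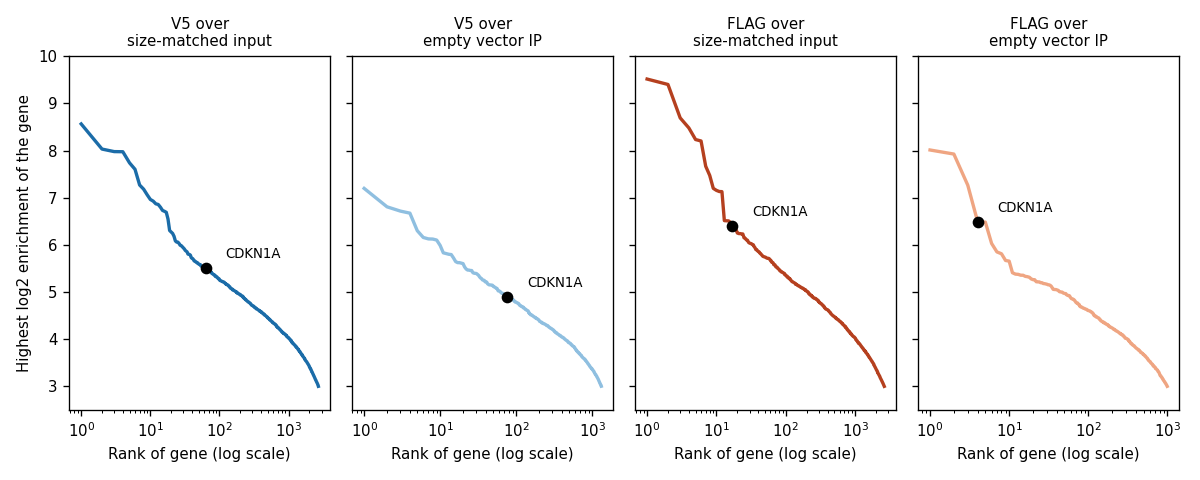
Genes with a peak in each list ordered by their highest log2 enrichment (y axis) against rank (x axis, log scale), with CDKN1A as the black point. It lies at 5.52, 4.90, 6.40 and 6.49 from the left panel to the right one.

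The genes most like CDKN1A were sought among the 549 genes with a peak in all 4 lists, by the Euclidean distance between their highest log2 enrichments in the 4 lists. The median distance was 3.73. The nearest was POLG, the mitochondrial DNA polymerase, at 0.83, with values of 5.58, 5.72, 6.51 and 6.48 in the order V5 over input, V5 over empty vector, FLAG over input and FLAG over empty vector. QPRT, an enzyme of NAD synthesis, followed at 1.03 with 6.03, 4.96, 6.10 and 5.65. UNC119B, WDR1 and ACTR1A, the latter a subunit of dynactin, followed at 1.07, 1.37 and 1.45. Over the 4 lists POLG had 16 peaks, ACTR1A 21, QPRT 29, UNC119B 51 and WDR1 69, against 53 for CDKN1A.

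CDKN1A was the one CIP/KIP member with peaks. CDKN1B (p27) and CDKN1C (p57), which inhibit the same kinases, had none in any list. As background, 13.2% of 20020 protein-coding genes had a peak in V5 over size-matched input and 6.52% in V5 over the empty vector IP. For FLAG these shares were 12.8% and 4.87%, and 2.01% of the genes had a reproducible interval. All annotated protein-coding genes were counted, expressed in these cells or not, so the shares among expressed genes would be higher. Of the 4 INK4 genes, whose products inhibit CDK4 and CDK6, CDKN2A stood at 4.00 with V5 and 3.43 with FLAG over size-matched input and CDKN2D at 3.61 and 3.58, while CDKN2B and CDKN2C had no peak. Neither CDKN2A nor CDKN2D had a reproducible interval.

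Of 16 genes for proteins that p21 binds or acts through, 8 had a V5 and 9 a FLAG peak over size-matched input, and 4 and 5 over the empty vector IP. Of all protein-coding genes, expressed or not, 13.2% and 12.8% had such a peak over size-matched input. Over the empty vector IP the shares were 6.52% and 4.87%. This list was written with earlier results of these data known, so its counts are a description only. CDK1, CCNE1, CCNE2, CCNB1, PCNA and RBL2 had no peak in any list. Those with a reproducible interval were the cyclin genes CCND2 and CCNA2 and the transcription factor gene E2F1, beside 2.01% of all protein-coding genes. CCNA2 (cyclin A2) stood at 4.92 with V5 and 5.09 with FLAG over size-matched input. In V5 over the empty vector IP it stood at 5.62, above CDKN1A (4.90), and in the other lists it was below CDKN1A. E2F1 stood at 5.10 and 4.49. The other genes of the list with a peak in both antibodies over size-matched input were lower than both. CDK4, the G1 kinase, stood at 3.67 and 3.88, CCND2 at 4.04 and 3.17, CCND1 at 3.90 and 3.15, CCND3 at 3.65 and 3.17, and RB1, the pocket protein that these kinases phosphorylate, at 3.26 and 3.48.

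Of 28 genes of the response to DNA damage and stress, CDKN1A included, 19 had a V5 peak and 18 a FLAG peak over size-matched input, and 16 and 15 had one over the empty vector IP. Over all protein-coding genes, expressed or not, these shares were 13.2%, 12.8%, 6.52% and 4.87%. In 18 both antibodies gave a peak over size-matched input (9.06% of protein-coding genes), 14 had a peak in all 4 lists (2.72%), and 10 had a reproducible interval (2.01%). The list was written with earlier results of these data known, so these counts are a description and no independent evidence.

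By height, 3 genes of the list stood above CDKN1A in V5 over size-matched input, 5 in V5 over the empty vector IP, 1 in FLAG over size-matched input and 2 in FLAG over the empty vector IP. CDIP1, a proapoptotic protein, was above it in every list, with 7.18 for V5 and 8.23 for FLAG over size-matched input. ATF3, a stress-induced transcription factor, stood at 6.06 and 6.37. CCNG1 (cyclin G1) stood at 6.93 with V5 and 4.71 with FLAG, so it was above CDKN1A with V5 and below it with FLAG. SESN2 (5.15) and PMAIP1 (5.10) were above CDKN1A (4.90) only in V5 over the empty vector IP.

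MDM2 and PPM1D stood below CDKN1A in every list. MDM2, a ubiquitin ligase, stood at 5.19 with V5 and 5.01 with FLAG over size-matched input, and PPM1D, a phosphatase, at 5.07 and 4.86. MDM2 had 7 reproducible intervals and PPM1D had 0. MDM4, a partner of MDM2, stood at 3.06 with V5 over size-matched input and had no FLAG peak with that control.

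Among genes of arrest and stress, SESN2 stood at 4.55 with V5 and 4.78 with FLAG over size-matched input, SESN1 at 4.02 and 4.56, BTG2 at 4.00 and 3.70 and GADD45A at 3.87 and 3.44. ZMAT3, an RNA-binding protein, stood at 4.29 and 4.15, PHLDA3 at 3.14 and 3.68, and FDXR at 3.11 and 3.51. SFN (14-3-3 sigma), PLK2 and PLK3 had no peak in any list.

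Among genes of cell death, AEN, an apoptosis-enhancing nuclease, stood at 5.21 with V5 and 5.64 with FLAG over size-matched input, and PMAIP1 (NOXA) at 5.33 and 4.93. The death receptor gene TNFRSF10B stood at 3.86 and 3.80. BAX, BBC3 (PUMA) and FAS had no peak in any list. Of the repair genes, RRM2B stood at 4.36 and 4.62 and XPC at 3.53 and 4.41, while DDB2 and POLH had none. The genes of the list thus ranged from the top of the lists to no peak at all.

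**Figure D4:**
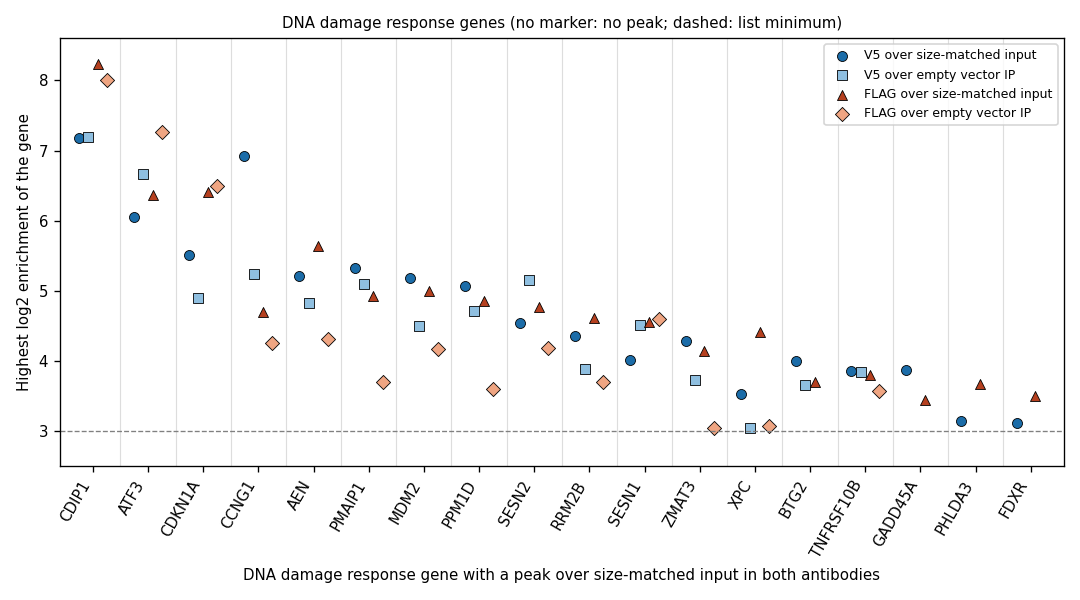
Highest log2 enrichment (y axis) in each list, 1 marker shape and colour for a list, for the 18 DNA damage response genes (x axis) with a peak over size-matched input in both antibodies, ordered by the sum of those 2 values. CDKN1A is the third from the left, after CDIP1 and ATF3, and no marker means no peak.

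The study describes a motif for dSpCas9, a GU in a loop upstream of a stem (GU-loop:5nt-stem), and its thresholds were used here on the sense strand. The pairing probability had to be below 0.7 for the U and above 0.5 for each of 5 stem bases, which were taken here as the bases directly after the GU. Nothing was required of the G, so a call does not show that the whole GU lies in a loop. It was called in intervals 3, 4 and 5 of CDKN1A, at the capitals printed above, and not in intervals 1 and 2. These are 3 of 5 intervals, beside 36.6% of the 749 intervals formed here from the 4 lists. Interval 1, with 5 nt, is too short for the 7 bases, which leaves 3 of 4 intervals of at least 7 nt, beside 38.8% of 706. The U was paired with a probability of 0.35, 0.32 and 0.37 in intervals 3, 4 and 5, and the G with 0.91, 0.53 and 0.39, so in interval 3 the G was predicted as paired. The least paired stem base had 0.51 in interval 3, 0.90 in interval 4 and 0.58 in interval 5, so interval 3 lay just past the threshold.

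When the whole spliced mRNA was folded instead, 9 sites were called, of which 7 began in a peak of at least 1 list (77.8%). In comparison, 64 of the 108 GU of the mRNA (59.3%) began in a peak and 52.8% of its bases lay in one. Of the 9 sites, 4 began in peaks of all 4 lists. These were those of intervals 4 and 5, the GTGGCAC at chr6:36686808-36686814 in stretch 9, and the GTGCGGG at chr6:36684303-36684309 in the shared CDS segment. The site of interval 3 was not called on the whole mRNA. In each list 4 peaks held a site by the folding of the peak with its flanks, with a median log2 enrichment of 4.86, 4.28, 4.89 and 4.03, against 3.72, 3.95, 4.19 and 3.60 for the peaks without one. The FLAG peaks without one include some of 5 nt, too short for the 7 bases of the motif. The same sites recur across the lists, so the 4 comparisons are not independent, and no link of motif to height was tested. Peaks without a site included the highest of all 53, the 37-nt FLAG peak of stretch 11 at 6.49. The V5 peak of that stretch at 5.40 and the FLAG peaks of stretch 10, at 5.32, 4.02 and 4.06, had none either.

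Bases in peaks of any list were richer in G and C than the others, 61.4% against 52.8% over the mRNA, 67.9% against 58.5% in the CDS and 58.5% against 50.7% in the 3′ UTR. Adenine made up 15.7% of bases in peaks and 22.7% of those outside. The mean predicted pairing probability was 0.54 in peaks and 0.49 outside, 0.52 and 0.47 within the 3′ UTR, and 0.59 and 0.53 within the CDS. In the 90 nt of the 5′ UTR, of which 18 lay in no peak, the mean was 0.57 in peaks and 0.60 outside with the folding window of 70 nt, and the order turned with a window of 150 nt (0.62 and 0.61). Stretch 4, with V5 peaks only, had the highest mean pairing of the 11 (0.71), and stretch 8 the lowest (0.39). These are shares of the bases of 1 mRNA, and neighbouring bases are not independent.

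**Figure D5:**
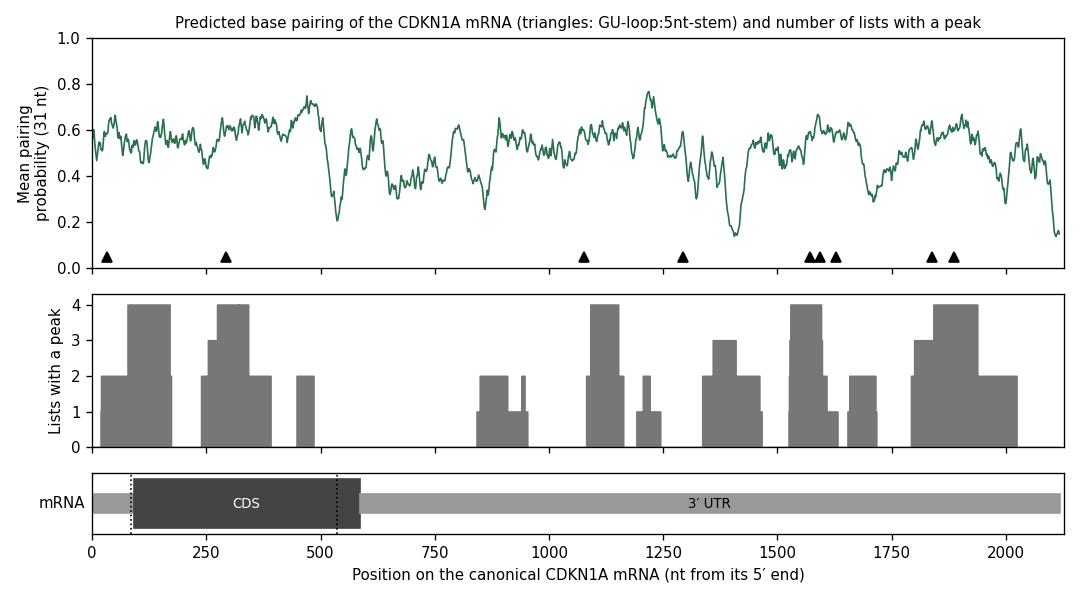
Top, predicted pairing probability along the canonical CDKN1A mRNA (mean over 31 nt), with triangles at the 9 GU-loop:5nt-stem sites of the whole mRNA; middle, the number of lists with a peak at each base; x axis, position in nt from the 5′ end. Of the 9 sites, 7 begin in a peak, and the first 256 nt after the CDS are free of peaks.

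Some known kinds of regulatory element in the 3′ UTR were looked for on the sense strand, and those found lay outside the peaks. Mature miRNAs of the miR-17 family share 1 seed, in capitals below (bases 2 to 8, RefSeq on GRCh38.p14), and a target carries its complement GCACUUU. The 3′ UTR of CDKN1A has it at 2 places, each shown with 30 nt of hg38 and the match in capitals.
hsa-miR-17-5p: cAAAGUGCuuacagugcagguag
hsa-miR-20a-5p: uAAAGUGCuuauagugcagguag
hsa-miR-93-5p: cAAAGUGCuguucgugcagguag
hsa-miR-106b-5p: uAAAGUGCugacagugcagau
First seed match, chr6:36686257-36686286: gtaaacagatgGCACTTTgaaggggcctca
Second seed match, chr6:36686937-36686966: cccagttcattGCACTTTgattagcagcgg

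Neither seed match lay in a peak of any list: the first lies between stretches 5 and 6, and the second between stretches 10 and 11. The 3 AUUUA pentamers, the core of AU-rich elements, began 110, 176 and 248 nt after the stop codon, inside the 256 nt without a peak. The single AAUAAA, a poly(A) signal, lay at chr6:36687309-36687314, past stretch 11. So 0 of these 6 elements lay in a peak, while peaks covered 50.6% of the 3′ UTR. The 6 are not independent, because the 3 AUUUA share 1 run without a peak. Bases outside peaks were also poorer in G and C, as given above. Whether peaks avoid such elements was not tested. Of 7717 3′ UTRs at least as long, the first 1532 nt held GCACUUU in 23%, AUUUA in 85.1% and AAUAAA in 61.4%. In longer 3′ UTRs this window leaves out the end, where the AAUAAA of CDKN1A lies. The AAUAAA share is therefore not a like comparison. A match of letters is not a measured site, and neither miRNAs nor other RNA-binding proteins were measured in these libraries.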

How the data were processed

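eCLIP libraries of dSpCas9 in HEK 293T cells were grouped by their labels (6 groups of 2 replicates). The authors aligned reads to hg38 with their eCLIP pipeline (0.4.0) and combined the replicates by Irreproducible Discovery Rate. The submitters' processing notes name UMI-tools 1.0.0, cutadapt 1.14, STAR 2.4.0i and SAMtools 1.6. The peak caller's version and the scaling of reads before the ratio are not given in the sources used here. The authors deposited, per peak, a log2 enrichment (IP over control reads, geometric mean of the replicates) and a −log10 p-value. The lists hold no counts, so depth is unknown.

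Positions were made 1-based, and peaks were assigned by strand to GENCODE version 44 canonical transcripts. Lists were intersected as V5 lists, FLAG lists, then V5 with FLAG (50% of the first interval). The resulting set is larger than the published one, and the reason was not tested. Folding used RNAplfold of ViennaRNA 2.7.2 (window and span 70, u = 1, flanks of 50 nt), and Python 3.11.15, numpy 2.4.6 and matplotlib 3.10.9 were used. Intersection and motif calls were tested on simulated data. The text names CDKN1A, genes of 4 lists with a peak over size-matched input in both antibodies (others by name or count), the 5 genes nearest in profile, and CDKN1A's neighbours in rank. Of these lists, 3 genes are not reported here and were left out of the counts. The members and lists were chosen with earlier results of these data known. Alternatives were a minimum log2 of 4, a weighted mean, other overlaps, protein-coding genes only and other folding settings.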

Additional observations from a re-analysis of the deposited data

How the results depend on the processing

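No paired analysis was possible because the lists hold 1 value per peak over both replicates, and for the same reason no replicate could be left out. A minimum log2 of 4 left 6, 3, 12 and 7 peaks (V5 over input, V5 over empty vector, FLAG over input, FLAG over empty vector), and 300, 551 and 375 nt in the last 3 of these lists. The length-weighted mean log2 was 4.29, 4.29, 4.48 and 3.94, with ranks of 297, 124, 193 and 208. Among protein-coding genes only, the FLAG rank over input was 10. Reproducible intervals numbered 10 with an overlap of at least 1 nt, 2 with 90%, 8 with the FLAG lists first and 0 with a minimum log2 of 4 in all lists. With a U paired under 0.5 and stem bases over 0.7, the motif was left in 1 interval. Why the counts moved was not tested beyond what each setting removes. With a folding window of 150 nt, mean pairing in the 5′ UTR in peaks minus outside turned from -0.033 to 0.014. In the other 37 alternatives, counts and shares stayed within 1.5 times and no difference changed sign. Depth and replicate spread are unknown, so no value has an error, and the ranks cannot be compared with sampling noise. RNA levels, which differ between genes and may differ between groups, were not measured in these lists.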
